A study of Canis lupus familiaris with 15 samples.

Results

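The genes described here are 40 genes of ribosome biogenesis and of the MYC program, followed across 15 canine osteosarcomas (OSA), each the primary tumor of a different dog. The rule took every listed gene that the annotation of the array names and, for each, its probeset with the highest mean signal among the probesets that carry that gene symbol alone. This gave 34 genes with 64 probesets, out of 15115 named genes and 42860 tested probesets in all. BOP1, PPAN, POLR1B, RRP9, GNL3 and LYAR were not named by the annotation and were not analysed here. Tumors of 8 dogs formed the DFI < 100 cohort, whose disease free interval after amputation of the limb and chemotherapy was shorter than 100 days, and tumors of 7 dogs formed the DFI > 300 cohort, whose interval was longer than 300 days. All tumors were taken before any chemotherapy, were snap frozen, and were measured once each on the Affymetrix Canine 2.0 array. The dogs then received cisplatin, carboplatin or doxorubicin.

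The cohorts also differed in what was not chosen. Age at diagnosis was 7.80 ± 2.28 years in the DFI < 100 cohort (SD, n = 8) and 10.46 ± 2.27 years in the DFI > 300 cohort (SD, n = 7), a difference of -2.66 years (exact permutation test over 6435 splits, 2-sided, p = 0.0452). The DFI < 100 cohort held 5 osteoblastic and 3 giant cell tumors, and the DFI > 300 cohort 6 osteoblastic tumors and 1 poorly differentiated tumor. There were 3 Greyhounds in the DFI < 100 cohort and 1 in the DFI > 300 cohort, and dogs of mixed breed numbered 1 in the DFI < 100 cohort and 4 in the DFI > 300 cohort. The DFI < 100 cohort also held 1 Doberman and 1 Labrador Retriever, and each cohort held 1 Rottweiler and 1 Golden Retriever. Tumor site in the limb also varied between dogs and, like the drug, was not compared between the cohorts here. Each cohort held 4 castrated males, with 4 spayed females in the DFI < 100 cohort and 3 in the DFI > 300 cohort.

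Ribosomes are built in the nucleolus. RNA polymerase I transcribes the ribosomal RNA precursor there, small nucleolar ribonucleoproteins modify it, and a long series of assembly factors cuts and folds it into the small and the large subunit. The transcription factor MYC, which binds DNA as a dimer with MAX, is known to raise many of these genes together with genes of nucleotide and polyamine synthesis, and its gene is often gained in osteosarcoma.

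All levels below are log2 PLIER signals, and a difference is the mean of the DFI < 100 cohort minus the mean of the DFI > 300 cohort on that scale. Near background means here a mean over the 15 arrays of 6.79 or less. That level was exceeded by only 5% of the 64 reporter controls on the array, which match no dog gene. Of the 34 genes, 29 were above this level. The 5 near background were MYCN (mean 6.25), POLR1A (6.20), UBTF (5.25), PES1 (6.56) and RRS1 (5.71), and MYC itself, at 6.86, was just above it. The arrays were alike in their median signal, 50.9 ± 2.37 in the DFI < 100 cohort (SD, n = 8) and 51.7 ± 2.13 in the DFI > 300 cohort (SD, n = 7). Controls at the 3 prime end exceeded those at the 5 prime end by a log2 ratio of 2.13 ± 0.28 in the DFI < 100 cohort and 2.20 ± 0.18 in the DFI > 300 cohort. Of the osteoblast markers, 7 of 8 measured genes were above the reporter level, among them the collagen genes COL1A1 and COL1A2, and BGLAP (osteocalcin) was below it. Osteoclast markers were above it for 4 of 5 genes and macrophage markers for 8 of 9, while T and B cell markers were above it for 0 of 10, endothelial markers for 3 of 7 and skeletal muscle markers for 1 of 7. The tumors were measured as bulk tissue, so that fewer cells of a type and less RNA per cell cannot be told apart.

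Of the 34 genes, 27 were on average higher in the DFI < 100 cohort and 7 were lower, and the median difference was 0.19. Over all 15115 named genes the mean was higher in the DFI < 100 cohort for 52.8% and the median difference was 0.02. Among the 29 genes above the reporter level, 24 were higher, with a median of 0.24. No gene passed an adjusted p of 0.05 in limma, neither among these genes nor among all 42860 probesets (0%), and the adjusted p was at least 0.999 for each of these genes. At an unadjusted p under 0.05, limma took 4 of the 34 genes, NCL, MYBBP1A, RCL1 and DDX18, all with the higher mean in the DFI < 100 cohort. Of all probesets, 1.83% passed that threshold with a higher mean in this cohort and 1.85% with a lower one. This count of 4 moved with single dogs. It was 1 without dog 223986 of the DFI < 100 cohort or dog 190030 of the DFI > 300 cohort, and 2 without dog 153599 or 208756 of the DFI < 100 cohort or dog 168327, 180119 or 180223 of the DFI > 300 cohort. With age as a covariate the count was also 1, the number of genes with the higher mean was 21 and the median difference was 0.11. The share of all probesets under that threshold was not counted with age or without single dogs. The part of age in these differences was not tested further. In the 11 osteoblastic tumors alone, 29 of the 34 genes had the higher mean in the DFI < 100 cohort and the median difference was 0.36. The share of all named genes with the higher mean was not counted in these 11 tumors, and these values were not compared with those of all genes there.

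**Figure D1:**
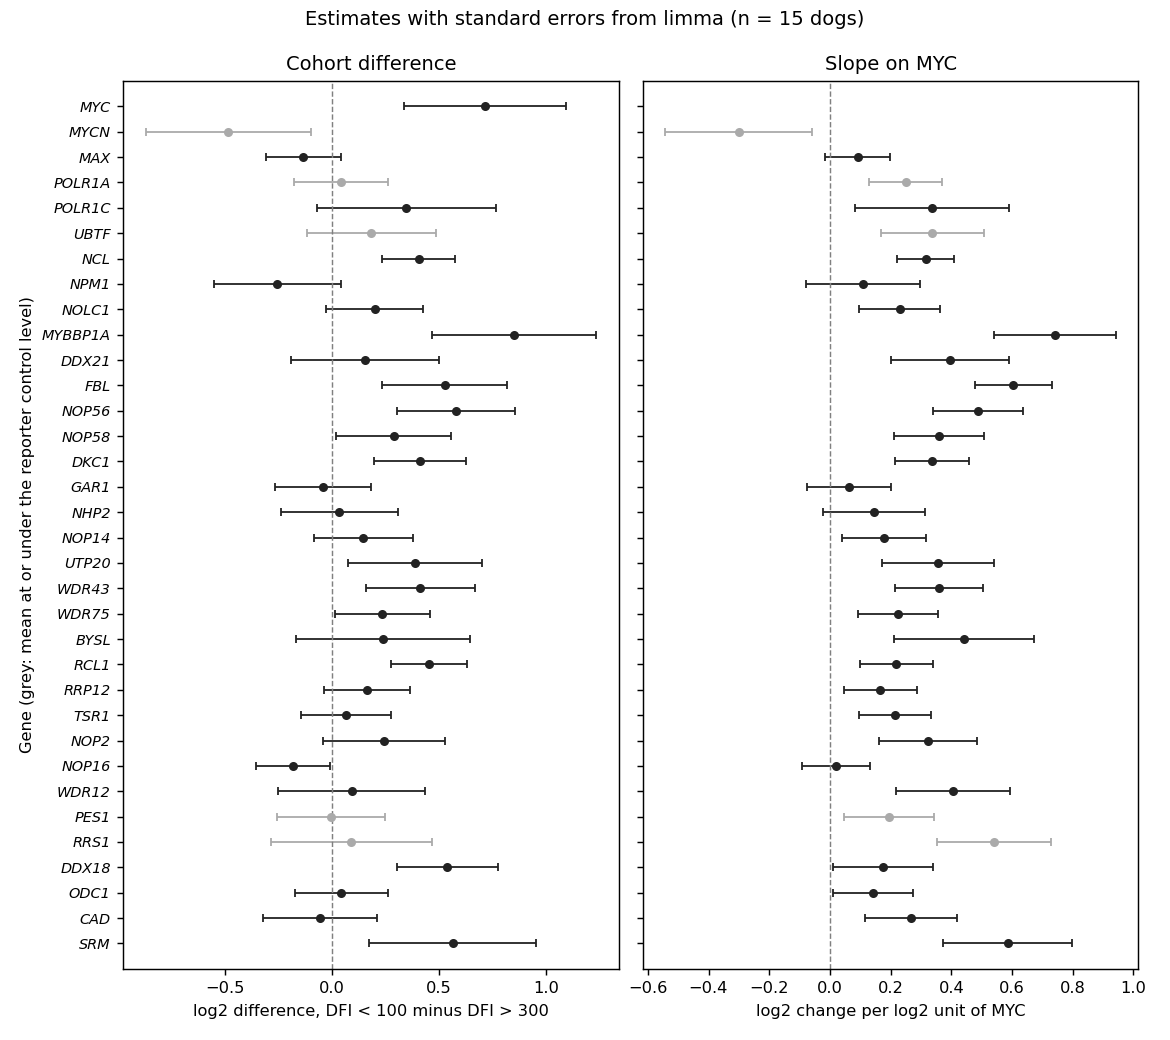
Cohort difference (left panel, log2, DFI < 100 minus DFI > 300) and slope on MYC (right panel, log2 change per log2 unit of MYC) of each measured gene, with standard errors from limma over 15 dogs. Black points are genes above the reporter control level and grey points those near background; 27 of 34 differences lie right of 0, as do 32 of 33 slopes.

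Of the MYC family, MYC had its lowest value at 6.18, its median at 7.14 and its highest at 8.13 in the DFI < 100 cohort, against 5.40, 6.43 and 7.81 in the DFI > 300 cohort. The cohorts overlapped, with 2 of the 8 DFI < 100 tumors above every DFI > 300 tumor. MYC averaged 7.19 ± 0.75 in the DFI < 100 cohort (SD, n = 8) and 6.47 ± 0.78 in the DFI > 300 cohort (SD, n = 7), a difference of 0.71 (standard error 0.38), which missed the threshold of 0.05 (exact permutation test over 6435 splits, 2-sided, p = 0.0956). Without dog 208513, the DFI > 300 tumor with the highest MYC value of its cohort, the difference was 0.94 and the exact permutation p was 0.0293. With each of the other 14 dogs left out the difference ran from 0.54 to 0.86 and the exact permutation p from 0.0530 to 0.191, the last without dog 190030. Only 7 of the 15 tumors, 5 of the DFI < 100 cohort and 2 of the DFI > 300 cohort, had a MYC value above 6.79, so the lower values of this gene lie within the range of the reporter controls. MAX, the partner without which MYC does not bind DNA, varied little, from 9.90 to 10.88 in the DFI < 100 cohort and from 10.05 to 10.79 in the DFI > 300 cohort, a difference of -0.13 (standard error 0.17). MYCN, which replaces MYC in some embryonal tumors, was near background and above 6.79 in 2 tumors of 15. Its difference was -0.48 (standard error 0.39), and its other probeset had one of 0.12 (standard error 0.17).

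The machinery of RNA polymerase I was poorly measured. POLR1A, the largest subunit, and UBTF, which binds the ribosomal DNA promoter, were near background with differences of 0.04 (standard error 0.22) and 0.19 (standard error 0.30). POLR1C, a subunit shared by RNA polymerases I and III, was well above background. It had a lowest value of 8.57, a median of 9.45 and a highest of 11.41 in the DFI < 100 cohort, against 8.16, 9.11 and 10.48 in the DFI > 300 cohort. The difference of 0.35 (standard error 0.42) rested on dog 223986, the highest tumor, and was 0.08 without it.

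The genes of nucleolar proteins did not share a direction. NCL (nucleolin), an abundant RNA-binding protein of the nucleolus, had a lowest value of 11.34, a median of 11.59 and a highest of 11.91 in the DFI < 100 cohort, against 10.65, 11.15 and 11.80 in the DFI > 300 cohort. The DFI < 100 tumors lay close together, and 4 of the 7 DFI > 300 tumors lay below all of them. NCL averaged 11.59 ± 0.19 in the DFI < 100 cohort (SD, n = 8) and 11.19 ± 0.41 in the DFI > 300 cohort (SD, n = 7), a difference of 0.41 (standard error 0.17, limma, unadjusted p = 0.0311, adjusted p = 0.999). MYBBP1A, a nucleolar MYB-binding protein with a role in ribosomal RNA processing, had the largest difference of the 34 genes, 0.85 (standard error 0.39, limma, unadjusted p = 0.0431, adjusted p = 0.999). Its lowest, median and highest values were 7.14, 8.90 and 9.34 in the DFI < 100 cohort, against 6.41, 8.08 and 8.56 in the DFI > 300 cohort, and 5 of the 8 DFI < 100 tumors lay above every DFI > 300 tumor. Left out in turn, single dogs moved it between 0.62 and 1.06, with the lowest value without dog 190030 and the highest without dog 208911. NPM1 (nucleophosmin), a chaperone that shuttles ribosomal particles out of the nucleolus, ran the other way. It averaged 10.20 ± 0.44 in the DFI < 100 cohort and 10.45 ± 0.73 in the DFI > 300 cohort, a difference of -0.26 (standard error 0.30), and kept this sign without each dog and in every alternative. NOLC1, a scaffold of the nucleolus and of Cajal bodies, and the RNA helicase DDX21 had differences of 0.20 (standard error 0.23) and 0.15 (standard error 0.35).

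**Figure D2:**
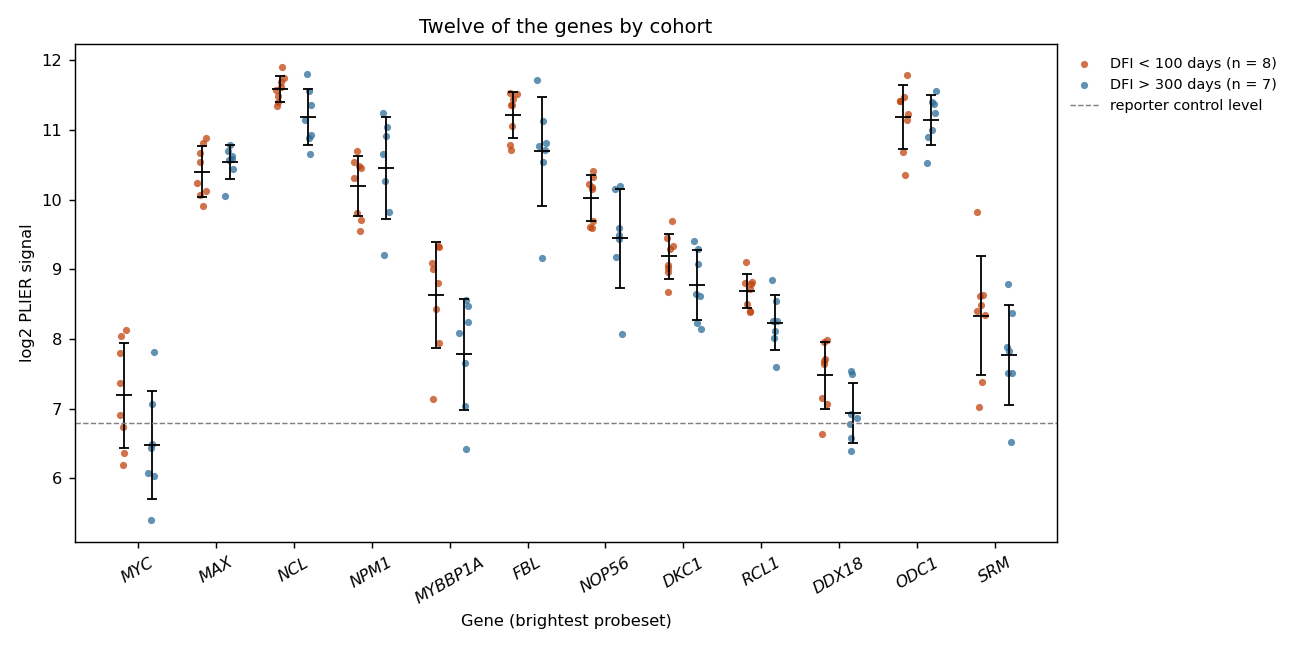
Log2 PLIER signal of 12 genes in each tumor, with DFI < 100 tumors on the left (n = 8) and DFI > 300 tumors on the right (n = 7) of each gene; black bars give the mean and SD, and the dashed line the reporter control level of 6.79. The cohorts overlap for every gene drawn, and for MYBBP1A and DDX18, 5 of 8 DFI < 100 tumors lie above every DFI > 300 tumor.

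The small nucleolar ribonucleoproteins fall into a methylating class (box C/D) and a pseudouridylating class (box H/ACA). The box C/D proteins were FBL (fibrillarin), the methyltransferase itself, and its scaffolds NOP56 and NOP58. FBL had a lowest value of 10.71, a median of 11.36 and a highest of 11.53 in the DFI < 100 cohort, against 9.16, 10.78 and 11.72 in the DFI > 300 cohort. The lowest value belonged to dog 190030, which stood more than 1 log2 unit under every other tumor. The difference of 0.53 (standard error 0.29) was 0.27 without this dog. For NOP56 the values were 9.60, 10.17 and 10.41 in the DFI < 100 cohort, against 8.07, 9.49 and 10.19 in the DFI > 300 cohort, again with dog 190030 lowest. NOP56 had a difference of 0.58 (standard error 0.27, limma, unadjusted p = 0.0513), or 0.35 without that dog, and NOP58 one of 0.29 (standard error 0.27). Of the box H/ACA proteins, the pseudouridine synthase DKC1 (dyskerin) averaged 9.18 ± 0.32 in the DFI < 100 cohort and 8.77 ± 0.50 in the DFI > 300 cohort, a difference of 0.41 (standard error 0.22). Its partners GAR1 and NHP2 had differences of -0.04 (standard error 0.22) and 0.04 (standard error 0.27), and both changed sign with single dogs left out.

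All 8 genes for processing and assembly of the small subunit had the higher mean in the DFI < 100 cohort, with a median difference of 0.24 and a range of 0.07 to 0.46. RCL1, a homolog of RNA cyclases that in yeast takes part in cutting the ribosomal RNA precursor, had the smallest p of the 34 genes. Its lowest, median and highest values were 8.38, 8.75 and 9.11 in the DFI < 100 cohort, against 7.60, 8.26 and 8.85 in the DFI > 300 cohort, so that the cohorts overlapped with 1 DFI < 100 tumor above every DFI > 300 tumor. The difference was 0.46 (standard error 0.18, limma, unadjusted p = 0.0216, adjusted p = 0.999), and the unadjusted p stayed under 0.05 with 14 of the 15 dogs left out in turn. WDR43 and WDR75, parts of the processome that gathers on the nascent transcript, had differences of 0.41 (standard error 0.25) and 0.24 (standard error 0.22), and UTP20, another part of the same particle, one of 0.39 (standard error 0.31). RRP12, an export factor of the small subunit in yeast, had a difference of 0.16 (standard error 0.20) and BYSL (bystin) one of 0.24 (standard error 0.41). NOP14 and TSR1 completed this group with 0.15 (standard error 0.23) and 0.07 (standard error 0.21). Of these 8 genes, BYSL and RRP12 had a lower mean in the DFI < 100 cohort once the Greyhounds were left out, and TSR1 with age as a covariate.

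Of the 6 measured genes for the large subunit, 4 had the higher mean in the DFI < 100 cohort, with a median difference of 0.09. DDX18, a nucleolar RNA helicase, had a lowest value of 6.63, a median of 7.66 and a highest of 7.99 in the DFI < 100 cohort, against 6.40, 6.87 and 7.54 in the DFI > 300 cohort. As for MYBBP1A, 5 of the 8 DFI < 100 tumors lay above every DFI > 300 tumor, and the difference was 0.54 (standard error 0.24, limma, unadjusted p = 0.0372, adjusted p = 0.999). NOP2, a methyltransferase of the large ribosomal RNA, had a difference of 0.24 (standard error 0.28). WDR12 and PES1, which form a complex with BOP1 during assembly, had differences of 0.09 (standard error 0.34) and -0.00 (standard error 0.25). The other probeset of PES1, also near background, had a difference of 0.42 (standard error 0.15, limma, unadjusted p = 0.0148, adjusted p = 0.999). RRS1, which helps bring in the 5S particle in yeast, had one of 0.09 (standard error 0.37). NOP16 was lower in the DFI < 100 cohort, with a difference of -0.18 (standard error 0.17), and 2 DFI < 100 tumors lay below every DFI > 300 tumor.

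Among the 3 enzymes that are classic MYC targets, SRM (spermidine synthase) had a difference of 0.56 (standard error 0.39), with a lowest value of 7.02, a median of 8.44 and a highest of 9.82 in the DFI < 100 cohort, against 6.52, 7.82 and 8.78 in the DFI > 300 cohort. SRM had the widest range of all 34 genes over the tumors, 3.29 log2 units. ODC1 (ornithine decarboxylase), the enzyme before it in polyamine synthesis, and CAD, which starts pyrimidine synthesis, had differences of 0.04 (standard error 0.22) and -0.05 (standard error 0.26).

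The same genes were then followed against the level of MYC, as the slope of each gene on the log2 signal of the MYC probeset over all 15 tumors. The slope was positive for 32 of 33 genes, and only MYCN had a negative one (-0.30, standard error 0.24), although its other probeset had one of 0.12 (standard error 0.11). The median slope was 0.27, against 0.01 over all named genes, of which 52.3% had a positive slope. In limma, 10 of the 33 genes had an unadjusted p under 0.05, all with a positive slope, where 4.73% of all 42859 probesets had this with a positive slope and 3.76% with a negative one. Above the reporter level it was 9 of 28 of these genes, all positive. Of all 6447 named genes above that level, 484 had this with a positive slope and 262 with a negative one. No probeset passed an adjusted p of 0.05 (0%), and the smallest adjusted p of these genes was 0.359, that of FBL. The count of 10 was 6 without dog 190030, which had the lowest MYC value, 4 without this dog and dog 184844, the 2 tumors farthest from the median MYC value, and 4 with the mean of the cell cycle genes as a covariate. The share of all probesets under that threshold was not counted in these settings. The slope stayed positive for 31 genes without the 2 farthest tumors and for 26 with the cell cycle covariate. The 4 Greyhounds had MYC values of 8.13, 7.80 and 6.36 in the DFI < 100 cohort and 7.81 in the DFI > 300 cohort, and 27 slopes were positive without them. Cell type markers were set against MYC as well. Slopes were positive for 0 of 5 osteoclast markers (median -1.12), 0 of 7 endothelial markers (median -0.22), 1 of 7 skeletal muscle markers (median -0.11), 5 of 9 macrophage markers, 4 of 8 osteoblast markers and 8 of 10 T and B cell markers, the last all near background. At an unadjusted p under 0.05 in limma there were 0 osteoclast, endothelial or osteoblast markers, 1 macrophage and 1 skeletal muscle marker with a negative slope, and 1 T and B cell marker with a positive one. The mean of the osteoclast markers ran from 5.93 to 10.64 in the DFI < 100 cohort and from 4.57 to 10.51 in the DFI > 300 cohort, with CALCR near background, and that of the endothelial markers from 6.53 to 8.42 in the DFI < 100 cohort and from 6.14 to 7.56 in the DFI > 300 cohort. Their part in the slopes on MYC was not tested.

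FBL had the smallest p of the 33 genes, with a slope of 0.60 per log2 unit of MYC (standard error 0.13, r = 0.80, limma, unadjusted p = 0.000268, adjusted p = 0.359). The 4 tumors with the highest MYC values, dogs 184844, 173175 and 223986 of the DFI < 100 cohort and dog 208513 of the DFI > 300 cohort, had FBL values of 11.35, 11.53, 11.44 and 11.72, and dog 190030 had the lowest value of both genes. Without dog 190030 the slope of FBL was 0.40. NOP56 had a slope of 0.49 (standard error 0.15, r = 0.67, limma, unadjusted p = 0.00520), or 0.28 without dog 190030, and NOP58 one of 0.36 (standard error 0.15). Of the box H/ACA proteins DKC1 had a slope of 0.34 (standard error 0.12, limma, unadjusted p = 0.0154), and NHP2 and GAR1 had slopes of 0.14 (standard error 0.17) and 0.06 (standard error 0.14).

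Of the nucleolar proteins, MYBBP1A had the largest slope of all 33 genes, 0.74 (standard error 0.20, r = 0.70, limma, unadjusted p = 0.00218), and NCL had one of 0.32 (standard error 0.09, r = 0.72, limma, unadjusted p = 0.00451). For both, the unadjusted p stayed under 0.05 with each dog left out in turn. NPM1 had a slope of 0.11 (standard error 0.19, r = 0.15), and its highest values, 11.25, 11.04 and 10.91, came from dogs 180223, 193231 and 188084 of the DFI > 300 cohort, whose MYC values were 6.43, 6.50 and 7.07. In the plot of genes against MYC, the tumors lie close to the line for FBL and scatter widely around it for NPM1 and MAX.

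**Figure D3:**
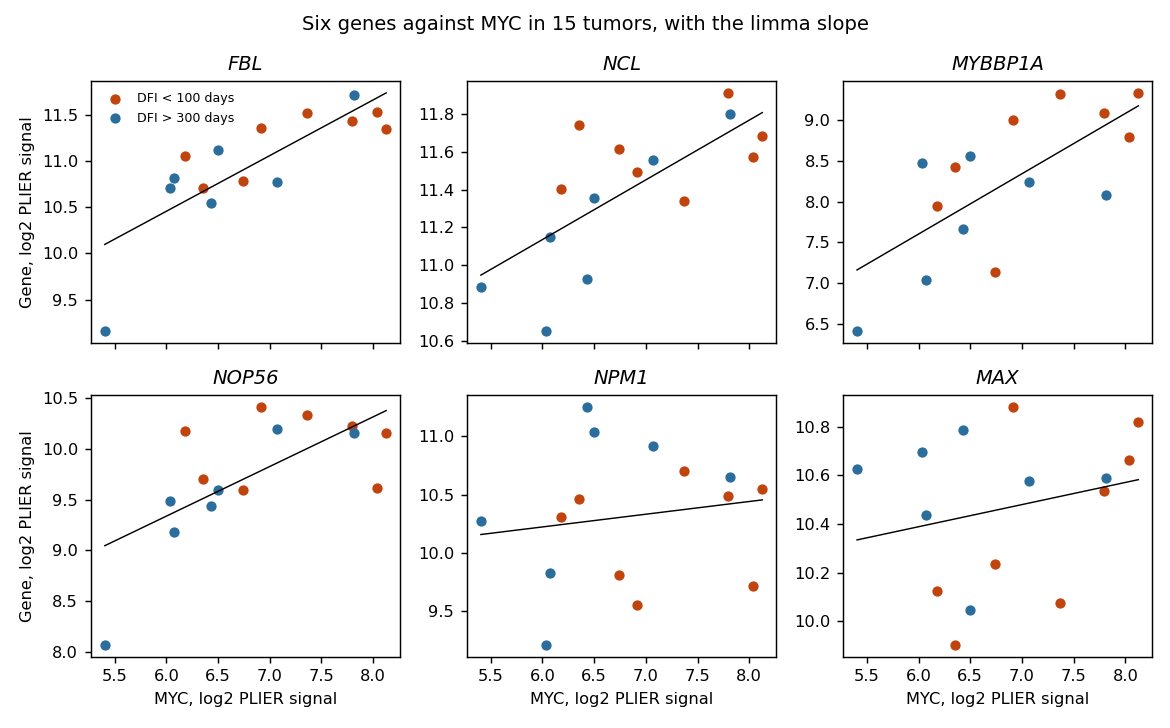
Log2 PLIER signal of 6 genes (vertical axis) against that of MYC (horizontal axis) in 15 tumors, DFI < 100 in red and DFI > 300 in blue, with the limma slope as a line. The slopes are 0.60 for FBL, 0.32 for NCL, 0.74 for MYBBP1A, 0.49 for NOP56, 0.11 for NPM1 and 0.09 for MAX.

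For assembly of the small subunit, the slopes of all 8 genes were positive, between 0.17 and 0.44, and WDR43 alone had an unadjusted p under 0.05 (slope 0.36, standard error 0.15, limma, unadjusted p = 0.0255). Of the genes for the large subunit, RRS1 had a slope of 0.54 (standard error 0.19, limma, unadjusted p = 0.0118) from values near background, and WDR12 one of 0.41 (standard error 0.19, limma, unadjusted p = 0.0468). DDX18, which had one of the larger cohort differences, had a slope of 0.18 (standard error 0.17), and NOP16 the smallest of the 33 in size, 0.02 (standard error 0.11).

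MAX and the 3 enzymes were also set against MYC by correlation, 4 relations in all, with a permutation test of 100000 resamples. SRM had a Pearson r of 0.59 (permutation p = 0.0196, adjusted 0.0784) and a Spearman rho of 0.47 (permutation p = 0.0770, adjusted 0.154) over 15 tumors. For CAD r was 0.44 (permutation p = 0.102, adjusted 0.204) and rho 0.57 (permutation p = 0.0282, adjusted 0.113). For ODC1 r was 0.29 (permutation p = 0.295, adjusted 0.385) and rho 0.42 (permutation p = 0.118, adjusted 0.158), and for MAX r was 0.24 (permutation p = 0.385, adjusted 0.385) and rho 0.21 (permutation p = 0.456, adjusted 0.456). None of the 4 passed 0.05 after adjustment. Without the 2 dogs farthest from the median MYC value, r was 0.60 for SRM, 0.39 for CAD, 0.18 for ODC1 and 0.25 for MAX. Within the DFI < 100 cohort (n = 8) r was 0.43 for SRM, 0.28 for CAD, 0.08 for ODC1 and 0.66 for MAX. Within the DFI > 300 cohort (n = 7) it was 0.64 for SRM, 0.83 for CAD, 0.62 for ODC1 and -0.05 for MAX. No r within a cohort passed 0.05 after adjustment, and the smallest adjusted permutation p was 0.0817, for CAD in the DFI > 300 cohort. The cohorts were not compared in these values.

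By tumor, the 29 genes above the reporter level moved in part as a block. Dog 223986 of the DFI < 100 cohort was above the mean of the 15 tumors for 29 of the 29 genes, with a median deviation of 0.42, and dog 184844 of the same cohort for 25. At the other end, dog 190030 of the DFI > 300 cohort had the lowest value of all tumors for 12 of the 29 genes, among them MYC, FBL, NOP56 and MYBBP1A, with a median deviation of -0.62. Dog 168327 of that cohort was lowest for 6 genes and above the mean for 3, and dog 180119 was lowest for 3 and above the mean for 4. Dog 190030 was above the mean for 5 genes and dog 180223 of the same cohort for 9. The lowest of these counts were thus all in the DFI > 300 cohort. Among the other tumors the cohorts overlapped. Dogs 193231, 188084 and 208513 of the DFI > 300 cohort were above the mean for 21, 20 and 19 genes, and dogs 204714, 173175 and 212759 of the DFI < 100 cohort for 11, 12 and 12. The mean over the 29 genes was 9.04 ± 0.23 in the DFI < 100 cohort (SD, n = 8) and 8.79 ± 0.38 in the DFI > 300 cohort (SD, n = 7). It was 9.08, 8.83 and 8.77 in the 3 giant cell tumors, all of the DFI < 100 cohort, and 8.85 to 9.39 in the 5 osteoblastic tumors of that cohort. Within this cohort, 2 of the 3 giant cell tumors thus lay just below the osteoblastic ones. Osteoblastic tumors of the DFI > 300 cohort ran from 8.29 to 9.22, and so reached below all the giant cell tumors.

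**Figure D4:**
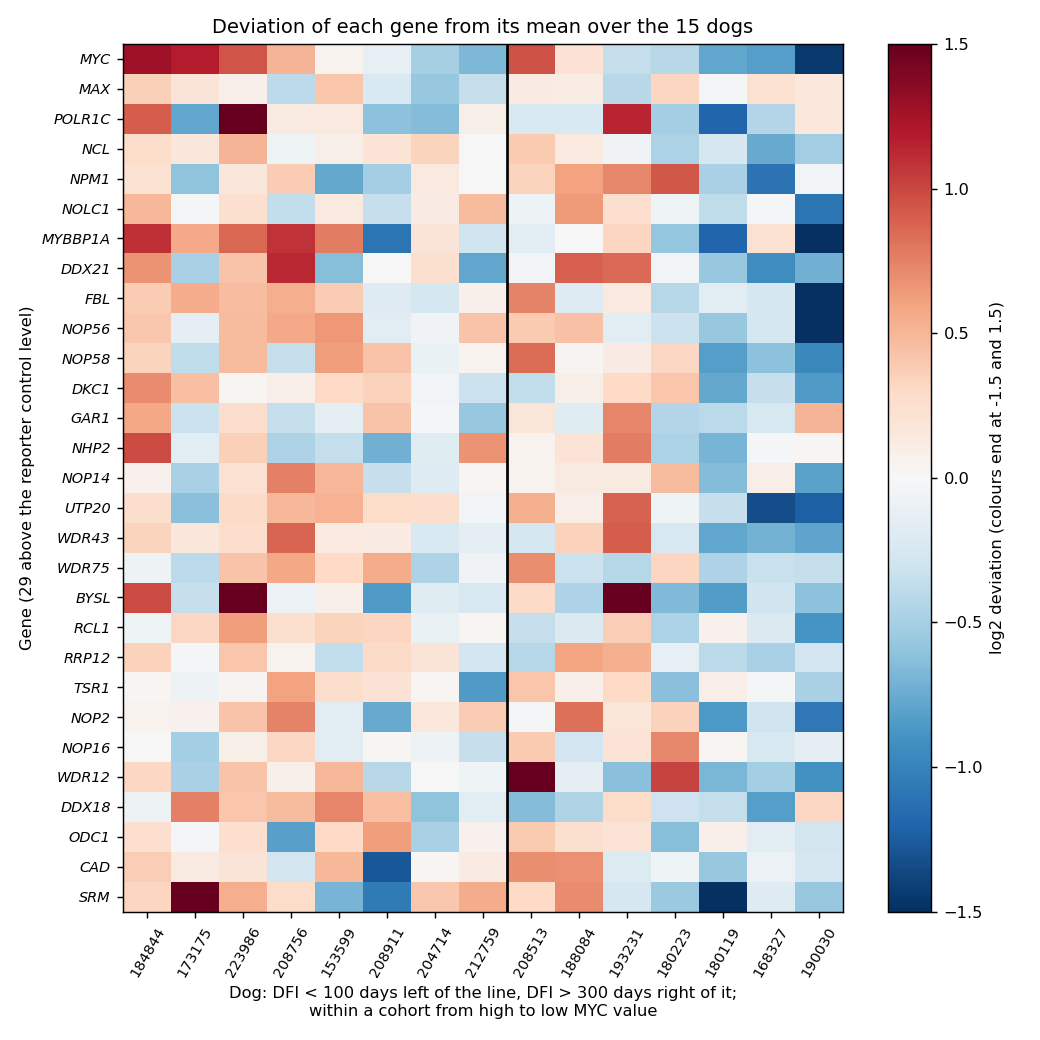
Log2 deviation of each of the 29 genes above the reporter level from its mean over the 15 tumors (rows), by dog (columns), with DFI < 100 left and DFI > 300 right of the black line and dogs in falling order of MYC within each cohort. Dog 223986 is above the mean in every row, and dog 190030, in the last column, is lowest in 12 of 29 rows.

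The pairwise correlation of these 29 genes over the 15 tumors had a median r of 0.33 over 406 pairs, of which 84.7% were above 0. Over all pairs of the 6448 named genes above the reporter level the median was 0.01 and 51.3% were above 0. All these pairs share the same 15 arrays, so the values describe these tumors and no test was made. The median for the 29 genes was 0.30 after the cohort means were taken out, and between 0.28 and 0.36 without each dog. FBL and NOP56, which sit in the same particle, had an r of 0.85, with a rho of 0.61, and dog 190030 was lowest for both. NOP58, of that particle too, had an r of 0.57 with FBL and 0.68 with NOP56. Of the box H/ACA proteins, DKC1 had an r of 0.17 with GAR1 and with NHP2, and GAR1 and NHP2 one of 0.42. DDX21 and RRP12 had an r of 0.81. WDR43 had the highest median r with the other 28 genes (0.495), followed by UTP20 (0.485), NOP56 (0.478) and FBL (0.477). MAX (-0.03), NOP16 (0.10), DDX18 (0.14) and GAR1 (0.15) were the least tied to the rest. MYCN, near background, had a median r of -0.28.

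The closest pair was BYSL and POLR1C, with r = 0.88 and rho = 0.70, although BYSL works in small subunit assembly and POLR1C in RNA polymerase. Both genes were highest in the same 3 tumors. BYSL was 10.003 and 9.46 in dogs 223986 and 184844 of the DFI < 100 cohort and 10.19 in dog 193231 of the DFI > 300 cohort, against at most 8.77 in the other 12 tumors. POLR1C was 11.41, 10.25 and 10.48 in the same dogs, against at most 9.50 in the others. The next brightest probesets of BYSL and of POLR1C were also above the reporter level, and had cohort differences of 0.18 (standard error 0.39) and 0.40 (standard error 0.45). In the RefSeq annotation of the dog assembly UU_Cfam_GSD_1.0 the genes lie on the same chromosome with 29 other named genes of the array between them. The neighbours were looked at after these values had been seen, and are given as a description. Of the 17 genes between them above the reporter level, all 17 had a positive r with the mean of BYSL and POLR1C, 11 had one above 0.5, and the median was 0.64. Of all 6446 other named genes above that level, these 17 included, 6.92% had an r above 0.5, and the median was 0.06.

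MRPS10, UBR2, PPP2R5D, MRPL2, SRF and DNPH1, 6 of these 17 genes, were highest in the same 3 dogs as BYSL and POLR1C, which was so for 0.465% of all genes above the level. That share, 30 of 6446 genes, includes these neighbours themselves. MRPS10 (a protein of the mitochondrial ribosome) was 9.95 and 9.76 in dogs 184844 and 223986 of the DFI < 100 cohort and 10.33 in dog 193231 of the DFI > 300 cohort, and at most 8.64 in the others. With 15 named genes more on each side, 19 of 30 genes above the level had an r above 0.5. The neighbour MED20, a Mediator subunit next to BYSL, had an r of 0.92, and XPO5 (exportin 5) next to POLR1C one of 0.85. Values varied along the stretch, with -0.16 for RSPH9, 0.82 for MRPS18A, 0.28 for VEGFA, 0.81 for MRPL14 and 0.03 for SLC29A1 on the far side of POLR1C. Without Greyhounds, which include dogs 184844 and 223986, the cohort differences of POLR1C and BYSL were -0.03 and -0.09.

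**Figure D5:**
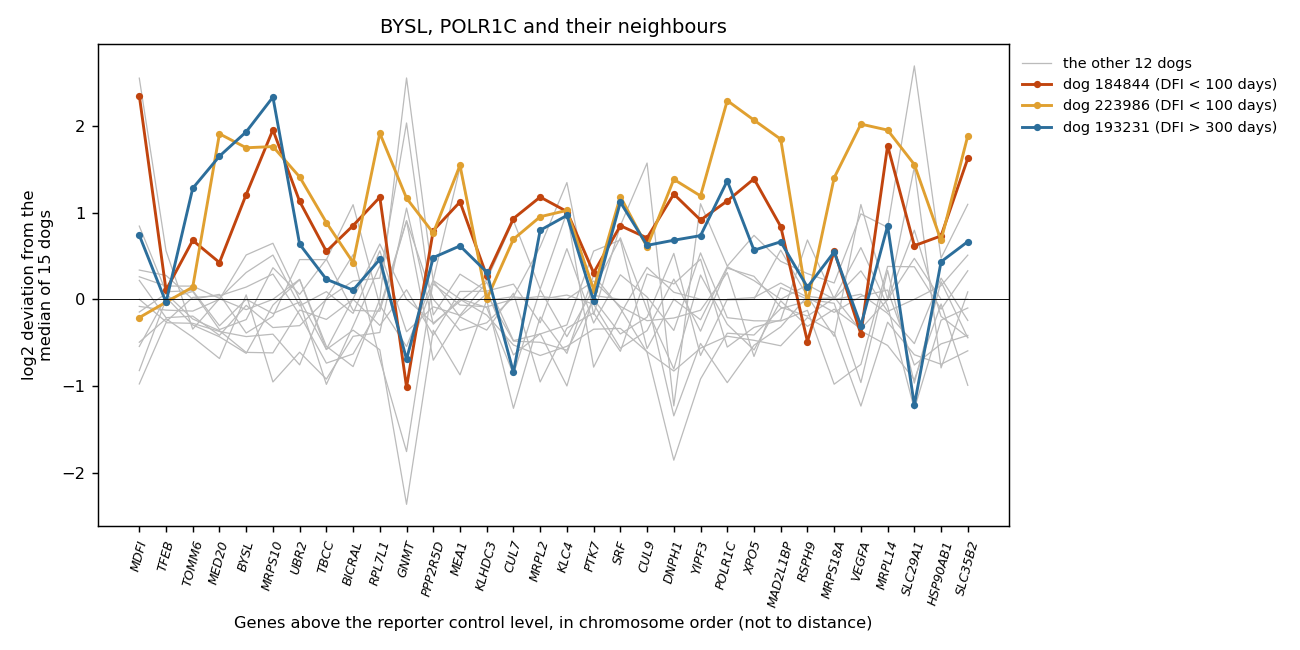
Log2 deviation from the median of the 15 tumors for BYSL, POLR1C and their named neighbours above the reporter level, in chromosome order and not drawn to distance. Coloured lines are the 3 dogs in which BYSL and POLR1C were highest and grey lines the other 12; the coloured lines run above the grey ones at BYSL, MRPS10 and POLR1C, and not at TFEB, VEGFA or SLC29A1.

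The same view of MYC gave fewer genes with an r above 0.5. Of the 11 named genes above the reporter level among the 10 on each side of MYC, 10 had a positive r with MYC. For comparison, 54.7% of all named genes above the level had a positive slope on MYC. The median r was 0.30 for the genes before MYC in chromosome order and 0.41 for those after it, against 0.05 over all genes above the level. ASAP1 alone had an r above 0.5 (0.57), as had 8.21% of all genes above the level. NPM1 and NOP16, which correlated with r = 0.62, also share a chromosome. Of the 13 genes above the level between them, 2 had an r above 0.5 with their mean, BOD1 (0.86) and BNIP1 (0.59). Of all genes above the level, 5.79% had. DDX21 lies on that chromosome too, with an r of 0.70 with NPM1 and 0.39 with NOP16. Other measured genes also share chromosomes. NOP58 and WDR12 had an r of 0.77, WDR75 and WDR12 0.70, NOP58 and WDR75 0.66, and FBL and RCL1 0.69. Lower values were those of NOLC1 and RRP12 (0.45) and of UBTF and TSR1 (0.13). ODC1, MYCN, CAD, WDR43 and POLR1A share a chromosome, with r from -0.36 to 0.50. The neighbours of these other genes were not looked at.

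Other genes of the pathway were taken from lists drawn up beside these. These lists include genes near background. For comparison, 128 of 6448 named genes above the reporter level had an unadjusted p under 0.05 with a higher mean and 114 with a lower one. Of all 15115 named genes, 293 and 247 had. On MYC, 484 of 6447 above the level had such a p with a positive slope and 262 with a negative one. Of all 15114 named genes tested on MYC, 791 and 502 had. Of 103 further genes of ribosome biogenesis, 77 had the higher mean in the DFI < 100 cohort, with a median difference of 0.17. In limma, 5 had an unadjusted p under 0.05 with a higher mean and 1 with a lower mean. Of the 81 above the reporter level, 4 had such a p with a higher mean and 0 with a lower one. On MYC, 24 of these 81 had such a p, all with a positive slope. BMS1, a GTPase of small subunit assembly, averaged 9.54 ± 0.35 in the DFI < 100 cohort and 8.79 ± 0.58 in the DFI > 300 cohort, a difference of 0.75 (standard error 0.24, limma, unadjusted p = 0.00766, adjusted p = 0.999). MPHOSPH10, of the same particle, had a difference of 0.61 (standard error 0.23), and NOL6, near background, one of 0.35 (standard error 0.11). Of all 103 slopes on MYC, 90 were positive, with a median of 0.22, and 31 had an unadjusted p under 0.05, all positive. They were led by RRP8 (0.53, standard error 0.13, near background), NOP9 (0.39, standard error 0.10) and NOC2L (0.55, standard error 0.14). Cytosolic ribosomal proteins, the products that these factors assemble, had smaller median values in both comparisons. Of 52 measured, 39 had the higher mean in the DFI < 100 cohort with a median difference of 0.08, and 2 of these an unadjusted p under 0.05. On MYC, 42 had a positive slope with a median of 0.08, and limma gave 8 positive slopes and 1 negative slope with an unadjusted p under 0.05. Among them RPL36 had a difference of 0.65 (standard error 0.28) and RPL24 one of 0.31 (standard error 0.14), while RPL26 had a slope of 0.39 (standard error 0.12). RPL35A and RPS13 had slopes of 0.30 (standard error 0.10) and 0.25 (standard error 0.06).

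The factors that surround MYC in its network, including its antagonists, were split more evenly. Of 21 genes, 11 had the higher mean in the DFI < 100 cohort with a median difference of 0.01, and 13 a positive slope on MYC, with an unadjusted p under 0.05 for the kinase AURKA (0.69, standard error 0.25) and for CIP2A (0.42, standard error 0.17), and for MLXIP with a negative slope (-0.17, standard error 0.08, near background). MXD3 and MXI1, antagonists of MYC, had cohort differences of -0.49 (standard error 0.30, near background) and 0.40 (standard error 0.34). Of 52 other known MYC targets, of which 41 were above the reporter level, 39 had the higher mean in the DFI < 100 cohort and 42 a positive slope. At an unadjusted p under 0.05 in limma, 12 slopes were positive and 1 negative. Of 6447 named genes above the reporter level, 484 had a positive and 262 a negative slope at that threshold. The translation initiation factor EIF2S1 had a slope of 0.49 (standard error 0.11), the prohibitin PHB one of 0.48 (standard error 0.13) and LDHA (lactate dehydrogenase) one of 0.33 (standard error 0.09). In the cohort comparison NDRG2, which MYC is known to repress, differed by -0.54 (standard error 0.18, near background) and E2F1 by 0.34 (standard error 0.14, near background).

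Cell cycle genes had a larger median slope on MYC than the genes of ribosome biogenesis, a difference that was not tested. Of 33, 32 had a positive slope, with a median of 0.43, and 20 had an unadjusted p under 0.05, all positive. Of 6447 named genes above the reporter level, 484 had a positive and 262 a negative slope at that threshold. DLGAP5, a spindle protein, had a slope of 0.95 (standard error 0.17, limma, unadjusted p = 4.8e-05, adjusted p = 0.359), RRM1, of ribonucleotide reductase, one of 0.54 (standard error 0.13) and CDC45, of the replicative helicase, one of 0.65 (standard error 0.16). In the cohort comparison 26 of the 33 had the higher mean in the DFI < 100 cohort, among them MCM2 (1.02, standard error 0.31) and MCM6 (0.56, standard error 0.17), helicase subunits of DNA replication. The mean of the cell cycle genes ran from 7.97 to 9.34 in the DFI < 100 cohort and from 7.59 to 9.54 in the DFI > 300 cohort, and dog 190030 was again lowest. With this mean in the model, FBL, NCL and MYBBP1A had slopes on MYC of 0.38, 0.29 and 0.65. Outside all lists, the 5 genes above the reporter level with the smallest p on MYC were DST, with a negative slope (-0.81, standard error 0.15), and G2E3 (0.63, standard error 0.13), LIN7C (0.60, standard error 0.12), PRMT3 (0.75, standard error 0.16) and DTD2 (0.62, standard error 0.13), each with an adjusted p of 0.359.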

How the data were processed

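Total RNA of 15 snap frozen primary tumors, 1 array per dog, was hybridised to Affymetrix Canine 2.0 arrays in 2 batches. Neither the batch of an array nor the normalization of its probes is given in the sources used here, and batches could therefore not be compared. The authors deposited linear PLIER intensities, made with Affymetrix Expression Console, with a value for each probeset in each array. Of 43035 probesets, 175 controls (111 Affymetrix, 64 reporter) were left out. Of the other 42860, 29254 carried 1 gene symbol in the platform annotation, 439 several and 13167 none. Each gene stood for its brightest probeset with 1 symbol. Of those of the 34 genes, 16, that of MYC among them, have names ending in s_at, the suffix of probesets that can match several transcripts.

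The log2 values, with no offset, were fitted with limma 3.58.1 in R 4.3.3, with p adjusted by Benjamini-Hochberg over all probesets. The cohort comparison had 42860 of them, and the comparison on the continuous log2 value of MYC 42859, without the MYC probeset. Dogs were never divided by MYC. Correlations and permutation tests used numpy 2.4.6 and scipy 1.17.1. Cohort came from the sample labels, breed and age from the labels, and sex, subtype and drug from the study's methods by dog number. Dogs are separate animals. Precision is limited by the number of arrays, which have no sequencing depth. The limma fits of both comparisons were tested on known differences added to the residuals of these arrays. The other steps were not tested in this way.

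Genes and lists were chosen with earlier results of these data known. Named in the text are the measured genes, the 3 genes with the smallest p of each other list in each comparison, and 5 genes outside all lists. Genes near BYSL, POLR1C, MYC, NOP16 and NPM1 on the chromosome fall outside this rule and were named after their values were seen, as were the markers COL1A1, COL1A2, BGLAP and CALCR. The correlations within each cohort and without the 2 farthest dogs were added after seeing the data, as was the view of chromosome neighbours, which used the gene order of RefSeq. No promoter or protein sequences were at hand, and the planned search of promoters for the MYC motif was not run.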

Additional observations from a re-analysis of the deposited data

Results flagged for a closer look

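Among 68 sets of values (34 genes in each cohort), 2 held a tumor set far apart from the rest of its cohort relative to the range of the cohort, where chance alone gives about 1 in 20. TSR1, a GTPase-like factor of small subunit assembly, was lowest in dog 212759 of the DFI < 100 cohort at 6.27, against 7.04 in the next tumor. CAD, the enzyme that starts pyrimidine synthesis, was lowest in dog 208911 of the same cohort at 6.97, against 7.97 in the next. Without these dogs the cohort difference was 0.19 for TSR1, against 0.07 with all dogs, and 0.12 for CAD, against -0.05 with all dogs, so that the sign of CAD turned.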

How the results depend on the processing

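Of the 34 genes, 21 kept the sign of their cohort difference in all other settings run and 25 without each dog, and of the 33 slopes on MYC 24 and 31 did. The 4 genes at an unadjusted p under 0.05 between cohorts became 1 with age as a covariate, 7 with the first principal component as a covariate, 7 with array weights, and 1 to 6 without single dogs. Without Greyhounds 2 probesets, none of these genes, passed an adjusted p of 0.05 between cohorts. The 10 genes on MYC became 6 with the first principal component, 16 with array weights, 4 with the cell cycle mean, 4 without the 2 dogs farthest from the median MYC value, and 6 to 14 without single dogs. Without dog 212759, 1 probeset passed an adjusted p of 0.05 on MYC, so the range was 0 to 1. The share of all probesets with an unadjusted p under 0.05 was not counted in these other settings. For these counts, shifts of these genes alone can therefore not be told apart from shifts of the whole array, and their cause was not tested. The MYC cohort difference ranged from 0.536 to 0.937 without single dogs. The smallest adjusted p of any of these genes in any setting was 0.951 between cohorts and 0.204 on MYC. The median difference ran from 0.113 with age to 0.364 in osteoblastic tumors, and the median slope from 0.152 with the cell cycle mean to 0.423 with age. These medians are not set beside those of all probesets here. Of 22 genes with several probesets, 19 had the same sign of the cohort difference on all of them, and MYCN, NHP2 and PES1 did not. MYC has 1 probeset, so the setting with another MYC probeset was not run. No paired analysis was possible because the cohorts are different dogs and their numbers do not match them. What limits these data is the signal over background for MYC and the 5 genes near background, and the 15 arrays.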
